A study of Mus musculus with 2 samples.

Results

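The mouse genome carries 3 genes for the microRNA miR-7: Mir7-1 and Mir7-2, which both give miR-7a, and Mir7b, which gives miR-7b. They were taken from the deposited tables by their Ensembl identifiers in the GENCODE M21 annotation, and all 3 were found among 1973 counted miRNA genes. MicroRNA libraries (size range below 30 in the labels) had been made from total RNA of neural tube, the embryonic precursor of brain and spinal cord, dissected from healthy mouse embryos of strain B6NCrl at an age of 12.5 days. The single group held 2 biological replicates, each a pool of male and female embryos, with 120 embryos in replicate 1 and 88 in replicate 2. No transgene, treatment, second tissue or second age is named for them, and the labels give both pools the same donor entry but separate biosamples. The design therefore allows comparisons among miRNA genes within the tissue and between the 2 libraries, and none between conditions.

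miR-7 is an old miRNA, shared by insects and vertebrates, that is known from neurons and from endocrine cells of the pancreas and pituitary. A primary transcript is cut to a hairpin, the hairpin is cut to a duplex of a 5p and a 3p arm, and the arm loaded into an Argonaute protein pairs through its seed, bases 2 to 8, with target RNAs. In mammalian brain miR-7 is part of a circuit of noncoding RNAs: the circular RNA Cdr1as holds many miR-7 sites, miR-671 directs the cutting of Cdr1as, and the long noncoding RNA Cyrano triggers the decay of miR-7. Of these RNAs only the miRNA genes were counted in these libraries.

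The mature sequences are shown first because they decide which reads a count per gene can hold. They are RefSeq's for GRCm38.p6, printed 5′ to 3′ with the seed in capitals, and all 3 genes matched an entry.
miR-7a-5p (Mir7-1 and Mir7-2): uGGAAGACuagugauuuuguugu
miR-7b-5p (Mir7b): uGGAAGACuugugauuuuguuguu
miR-7a-1-3p (Mir7-1): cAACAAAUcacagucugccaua
miR-7a-2-3p (Mir7-2): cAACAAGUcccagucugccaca
miR-7b-3p (Mir7b): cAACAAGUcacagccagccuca

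The 5p arms had 1 seed in common, and among 1738 mature entries in the RefSeq table only the 3 entries of these genes carried it. Counted from the 5′ end, miR-7b-5p differed from miR-7a-5p by the single substitution A10U, outside the seed, over the 23 bases compared. The 3p arms fell into 2 seeds. Those of Mir7-2 and Mir7b had the same one, and that of Mir7-1 differed from the arm of Mir7-2 by A7G, A10C and U21C, the first of which lies in the seed. Mir7j and Mir7k, with similar symbols, are not members. RefSeq gives Mir7j the mature let-7j and Mir7k the mature let-7k, whose seeds are those of another family. Mir7j had 383 and 183 reads in replicates 1 and 2, and Mir7k had 0 in both.

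The hairpins are printed from RefSeq with the 2 mature arms in capitals, to show where the copies are alike.
Mir7-1: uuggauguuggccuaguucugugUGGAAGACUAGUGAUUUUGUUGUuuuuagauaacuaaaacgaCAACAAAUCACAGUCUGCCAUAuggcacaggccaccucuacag
Mir7-2: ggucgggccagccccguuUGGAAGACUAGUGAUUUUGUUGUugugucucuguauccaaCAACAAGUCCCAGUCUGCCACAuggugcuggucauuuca
Mir7b: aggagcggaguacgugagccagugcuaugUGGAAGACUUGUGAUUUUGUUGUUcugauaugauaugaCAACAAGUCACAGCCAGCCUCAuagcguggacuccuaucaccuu

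The longest run that the Mir7-1 and Mir7-2 hairpins had in common was 24 bases long, and it consisted of miR-7a-5p and the base after it. It began at the first base of the mature sequence, at position 24 of the Mir7-1 hairpin and position 19 of the Mir7-2 hairpin. A read that starts at the mature 5′ end and is no longer than this run therefore has the same letters for both genes, while a read that starts upstream of it, extends past it, or comes from the 3p arm does not. Of the windows of 20 bases along the hairpins, 5 of 89 in Mir7-1 and 5 of 78 in Mir7-2 were present in the other gene, and in no further counted miRNA hairpin. None of the 92 windows of Mir7b was present in another. Its longest run in common with either Mir7a gene was 14 bases. The arms of Mir7-1 were 19 bases apart, those of Mir7-2 17 and those of Mir7b 14.

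**Figure D1:**
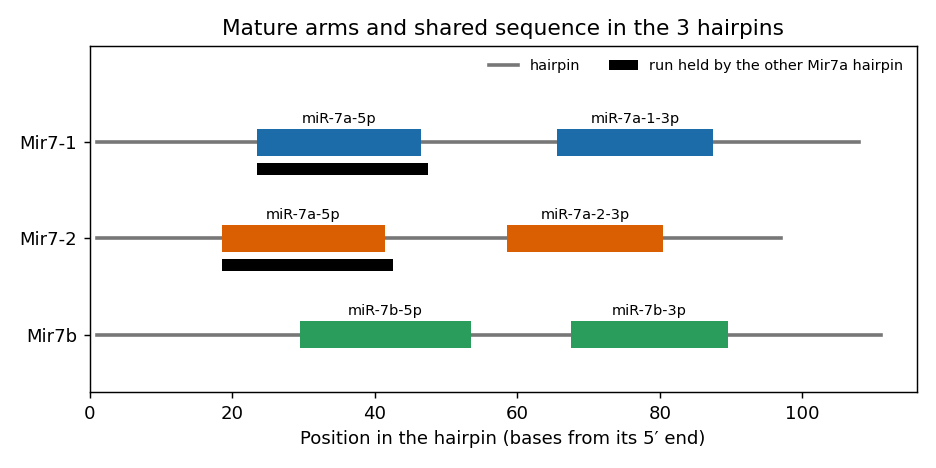
Positions of the mature arms (coloured boxes) in the 3 hairpins (grey lines), in bases from the 5′ end of each hairpin. The black bars mark the 24-base run that Mir7-1 and Mir7-2 have in common, which covers the 5p arm of both and no part of a 3p arm, and Mir7b has no bar.

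The 3 genes lie on separate chromosomes of the mm10 assembly. Mir7-1 (ENSMUSG00000065434) lies on chromosome 13 at 58392779 to 58392886, minus strand, in an intron of Hnrnpk, which encodes a widely expressed RNA-binding protein, with exons of that gene 233 and 302 bases away on its sides. Mir7-2 (ENSMUSG00000065609) lies on chromosome 7 at 78888277 to 78888373, plus strand, outside any other annotated gene and 7.48 kb from Aen. Mir7b (ENSMUSG00000065491) lies on chromosome 17 at 56242988 to 56243098, plus strand, also outside other genes and 183 bases from the lincRNA gene AC026385.1 on the same strand. No other annotated miRNA gene lay within 10 kb of any of them. MiRNA genes at either kind of locus covered a wide range of levels: the median was 102 CPM over 166 detected intronic genes and 152 CPM over 110 detected genes outside others, with wide quartile ranges of 14.2 to 748 and 37.4 to 865 CPM.

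Levels are given in CPM, the own-strand reads of a gene per 1000000 own-strand reads on all counted genes of the library. The total was 4802411 reads for replicate 1 and 4422853 for replicate 2, so a count of 0 allows up to 0.625 and 0.678 CPM. PCR copies cannot be told from separate molecules here, and all intervals below cover counting error only. A gene counts as detected where each library had 10 reads or more. This held for 371 genes, among them all 3 Mir7 genes.

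Mir7-1, the intronic copy, had 1218 reads in replicate 1 and 942 in replicate 2, or 254 and 213 CPM. Its mean was 233 ± 28.7 CPM (SD, n = 2), rank 156 of the 371 detected genes. Mir7-2 had 800 and 582 reads, or 167 and 132 CPM, with a mean of 149 ± 24.7 CPM and rank 173. Both miR-7a genes were thus higher in replicate 1.

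Mir7b had 420 reads in replicate 1 and 534 in replicate 2, or 87.5 and 121 CPM, and was the member that was higher in replicate 2. Its mean was 104 ± 23.5 CPM (SD, n = 2), rank 191 of 371. The median over detected genes was 115 CPM, so the counts of the 3 genes stood near the middle of the detected range. Reads that map to several places are outside these counts, so the ranks are those of placed reads only. None of the 3 genes had a read on the opposite strand in either library.

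**Figure D2:**
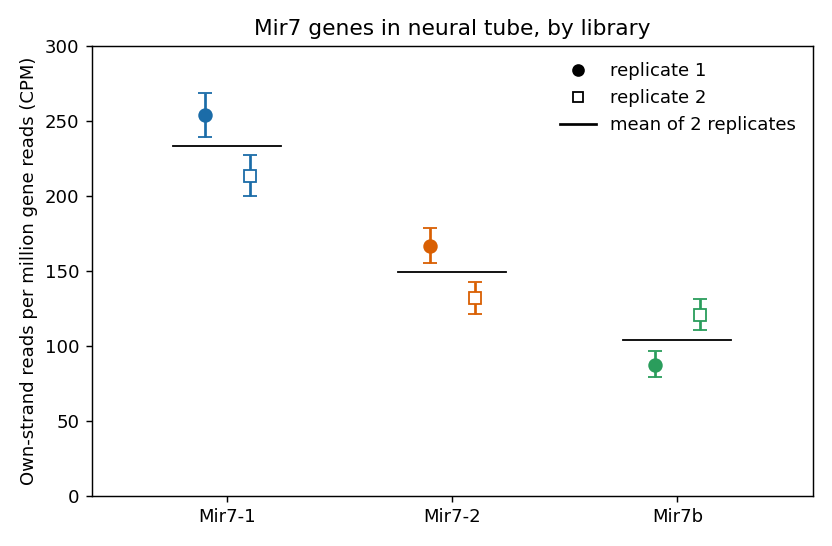
CPM (y axis) of the 3 Mir7 genes in replicate 1 (filled circles) and replicate 2 (open squares), with exact binomial 95% intervals and the mean of both as a black line. Mir7-1 and Mir7-2 are higher in replicate 1 and Mir7b in replicate 2, where Mir7b (121 CPM) comes close to Mir7-2 (132 CPM).

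The exact binomial (Clopper-Pearson) 95% intervals of the 2 libraries did not overlap for any member. Differences beyond counting error were common: in the test given below, 53.1% of the 371 detected genes passed without a fold minimum. That test scales the libraries and adjusts its p-values, which the intervals do not, so 53.1% is no substitute for a share of non-overlapping intervals. The share of all detected genes whose intervals do not overlap was not counted, so whether the members stand out in this cannot be said. For Mir7-1 the intervals were 240 to 268 CPM in replicate 1 and 199.6 to 227 in replicate 2, and for Mir7-2 155 to 179 and 121 to 143. For Mir7b they were 79.3 to 96.2 and 111 to 131 CPM.

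Together the 3 genes held 0.0508% of the reads of replicate 1, with a 95% interval of 0.0488 to 0.0528, and 0.0465% of those of replicate 2, with an interval of 0.0445 to 0.0486. The mean was 0.0486% ± 0.00299 (SD, n = 2). Mir7-1 gave 50.0% of the family's reads in replicate 1 and 45.8% in replicate 2, and Mir7-2 32.8% and 28.3%. Mir7b gave 17.2% (95% interval 15.7 to 18.8) and 25.9% (24.1 to 27.9).

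Within a library, ratios between members need no scaling of the libraries. Mir7-1 outnumbered Mir7-2 by 1.52 times in replicate 1 and 1.62 times in replicate 2, a mean of 1.57 ± 0.0679 (SD, n = 2), which lay above 1 by more than its spread. The counting intervals of this ratio, 1.39 to 1.67 and 1.46 to 1.80, overlapped. Mir7-1 outnumbered Mir7b by 2.90 and 1.76 times, a mean of 2.33 ± 0.803, also above 1 by more than its spread. Mir7-2 outnumbered Mir7b by 1.90 and 1.09 times, and the mean of 1.50 ± 0.576 was above 1 by less than its SD. The order of the counts was therefore Mir7-1, Mir7-2, Mir7b in both libraries, with the mean ratio of the last pair within 1 SD of 1. In replicate 2 the counting interval of the ratio of Mir7-2 to Mir7b, 0.967 to 1.23, included 1. For a single pair of genes, an exact two-sided sign test over 2 libraries cannot go below p = 0.5, so ratios are set against their SD. An SD of 2 values is itself uncertain, so a mean above 1 by more than 1 SD does not establish a difference for any pair. The counts are of reads and not of molecules, and how evenly library preparation captured the different arms was not tested.

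Multiply mapping reads stand in a row of their own outside the gene counts, and they numbered 3448592 in replicate 1 and 2698981 in replicate 2, which is 1415 and 1311 times the reads counted for the whole family. How many of them are miR-7a-5p was not tested. The values of Mir7-1 and Mir7-2 are those of reads placed at one of the 2 genes, and a count per gene does not separate 5p from 3p. The level of miR-7a as a miRNA, and its ratio to miR-7b, therefore cannot be read from these counts. The family's share of reads and the ranks of Mir7-1 and Mir7-2 have the same limit.

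The situation of Mir7-1 and Mir7-2, 1 arm in common and 1 different, was found for 30 pairs of counted miRNA genes with 2 mature sequences each, and both genes were detected in 17 of those pairs. These pairs were listed after the values had been seen and describe the same limit in other families. The ratio of the higher to the lower gene ranged from 1.16 for Mir125b-1 over Mir125b-2 to 69.4 for Mir181b-2 over Mir181b-1, with a median of 2.95. The ratio of 1.57 for Mir7-1 over Mir7-2 stood 14th of the 17, so the miR-7a copies were among the more even pairs. Between the libraries this ratio moved by 0.09 on the log2 scale, against a median of 0.28 over the pairs, and 5 pairs moved less.

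Genes were also grouped by whether a mature sequence recurs in full in the hairpin of another counted gene. Among genes with 2 mature sequences, those with 1 recurring, as in Mir7-1 and Mir7-2, were detected in 37 of 53 cases with a median of 140 CPM. Mir7-1 and Mir7-2 ranked 15 and 17 among those 37. Genes with none recurring, as in Mir7b, were detected in 240 of 512 cases with a median of 162 CPM, and Mir7b ranked 135 among those 240. Genes with both recurring were detected in 5 of 17 cases, with a median of 49.5 CPM. The medians cover only detected genes.

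To test each gene between replicates, its reads were split by an exact binomial test (two-sided, totals scaled by edgeR's TMM method), with Benjamini-Hochberg adjustment over the 371 detected genes. A gene was called at an adjusted p under 0.05 and at least 2-fold. By this rule 10 genes were called, 2.70% of those tested, and none of them was a Mir7 gene. Mir7-1 was 1.16-fold higher in replicate 1 (log2 ratio 0.21, adjusted p = 0.00163, exact binomial test). Mir7-2 was 1.23-fold higher there (log2 ratio 0.30, adjusted p = 0.000342, exact binomial test). Mir7b was 1.42-fold higher in replicate 2 (log2 ratio -0.50, adjusted p = 2.69e-07, exact binomial test). Without the fold minimum all 3 passed, as did 53.1% of all detected genes, 26.1% as higher in replicate 1 and 27.0% as higher in replicate 2. The test covers counting error only and compares these libraries, not conditions.

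Replicate error puts these sizes in proportion. The common coefficient of variation of the detected genes was 16.3% (edgeR), or, for a log2 ratio between the libraries, an SD of 0.33. Mir7-1 and Mir7-2 lay 0.640 and 0.905 of that SD from 0, and Mir7b 1.51. The median absolute log2 ratio over detected genes was 0.24. The shift of Mir7-1 against Mir7b was 0.72 on the log2 scale and that of Mir7-2 against Mir7b 0.81, where the difference of 2 such log2 ratios has an SD of 0.47. Mir7b thus moved against the miR-7a genes by 1.52 and 1.71 replicate SDs.

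**Figure D3:**
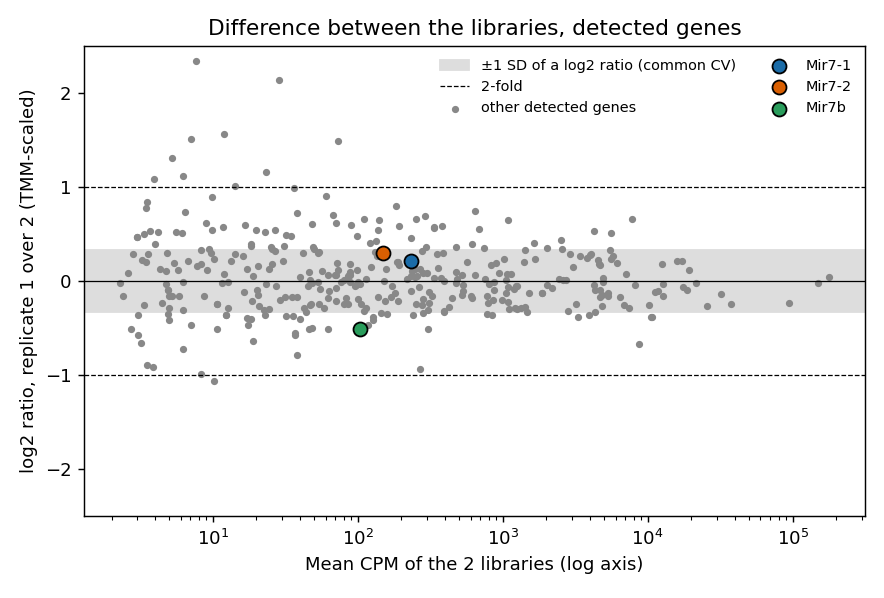
Log2 ratio of replicate 1 over replicate 2 (y axis, TMM-scaled) against mean CPM (x axis, log scale) for the 371 detected genes, with the Mir7 genes coloured, the grey band at ±0.33 (1 SD from the common coefficient of variation) and dashed lines at 2-fold. Mir7-1 (0.21) and Mir7-2 (0.30) lie inside the band and Mir7b (-0.50) below it, all within 2-fold.

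Of the miR-7 circuit, Mir671, the gene of the miRNA that directs the cutting of Cdr1as, had 1418 reads in replicate 1 and 1196 in replicate 2, or 295 and 270 CPM. Its mean was 283 ± 17.6 CPM (SD, n = 2), and within replicates 1 and 2 its CPM was 1.16 and 1.27 times that of Mir7-1. It was not called between them (log2 ratio 0.09, adjusted p = 0.186, exact binomial test).

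Genes of other miRNAs known from neural tissue were set beside the family to describe the labelled tissue, most of them under the limit of gene copies given above. Of 16 listed genes, 15 matched a counted symbol, Mir9-1 being the one that did not, and 13 were detected, with a median of 275 CPM against 115 over all detected genes. Mir219a-2, of an oligodendrocyte lineage miRNA, had 5544 ± 1479 CPM (n = 2), and Mir137, of a regulator of neuronal differentiation, 2809 ± 379 CPM. Mir153 had 807 ± 1.17 CPM and Mir219a-1 395 ± 7.05 CPM. In both libraries 6 of the 15 exceeded Mir7-1 and 5 were below Mir7b. The latter were Mir9-2, Mir218-1 and the 3 Mir124a genes, of which Mir124a-2 had the most reads with 9.71 ± 1.58 CPM. All 5 belong to miRNAs with several gene copies, so the limit given for Mir7-1 and Mir7-2 holds for them too. Multiply mapping reads are outside their counts, and a low count here is no measure of the miRNA's level. The limit holds as well for higher genes of the list, among them Mir219a-2, Mir219a-1, Mir9-3 and Mir135a-1, the last being the gene at the list's median. Each has a mature sequence that recurs in the hairpin of another counted gene. Mir137 and Mir153 have none that recurs. The list's median log2 ratio between the libraries was -0.0026. None of its 13 detected members was called at 2-fold, against 2.70% of all detected genes. Without a fold minimum 4 were higher in replicate 1 and 4 in replicate 2, against 26.1% and 27.0% of all detected genes.

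A list labelled endocrine was taken because miR-7 is also known from endocrine cells, and all 4 of its genes were detected. The label fits only Mir375, so the list's sum and median are no measure of endocrine cells. Mir375, a miRNA gene of pancreatic islets and pituitary, had 362 CPM in replicate 1 and 218 in replicate 2, or 1.43 and 1.03 times Mir7-1. The other genes of the list are known mainly from exocrine pancreas: Mir217 had 272 and 192 CPM, Mir216b 77.7 and 66.0, and Mir216a 50.2 and 57.7. The list summed to 0.0761% of gene reads in replicate 1 and 0.0534% in replicate 2, its median log2 ratio was 0.33 against 0.00 over all detected genes, and none of its members was called at 2-fold. Without a fold minimum 2 of the 4 were higher in replicate 1 and 0 in replicate 2, against 26.1% and 27.0% of all detected genes. Mir7-1 and Mir7-2 were higher in the same library as this sum, and Mir7b and Mir216a in the other. Mir126a, Mir206, Mir451a and Mir122, given next, were higher in replicate 1 as well. A direction shared over 2 libraries does not link genes, and a relation of the Mir7 genes to this list was not tested. Markers of further tissues were present too: the endothelial gene Mir126a had 20304 and 18258 CPM, the muscle gene Mir206 811 and 470, the erythroid gene Mir451a 76.6 and 68.7, and the liver gene Mir122 32.3 and 14.0. The part of such cells in the Mir7 values was not tested, and in pooled tissue fewer cells of a type and less RNA per cell cannot be told apart.

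**Figure D4:**
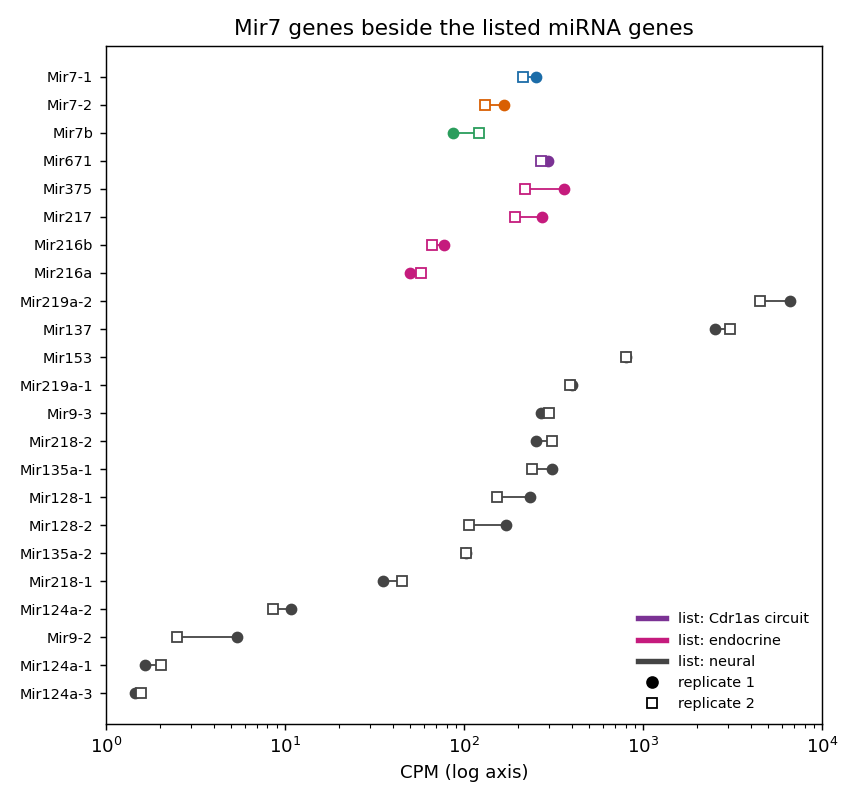
CPM (x axis, log scale) in replicate 1 (filled circles) and replicate 2 (open squares) for the 3 Mir7 genes, Mir671 and the lists labelled endocrine and neural, each list in order of its mean. In the list labelled endocrine, the genes other than Mir375 are known mainly from exocrine pancreas. The Mir7 genes lie between 87.5 and 254 CPM, near Mir671 and Mir375, and below Mir219a-2 and Mir137. The Mir124a genes and Mir9-2 lie lowest. Like Mir7-1, Mir7-2 and most genes of the neural list, Mir219a-2 among them, they are gene copies. Counts of such copies lack the multiply mapping reads, so the plot does not rank the miRNAs.

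By distance in log2(CPM + 1) over the 2 libraries, the genes nearest to Mir7-1 were Mir148a (distance 0.0792, 248 and 224 CPM), Mir199b (0.111) and Mir494 (0.156). Nearest to Mir7-2 were Mir301b (0.151, 165 and 146 CPM), Mir3099 (0.203) and Mir195a (0.212). Nearest to Mir7b were Mir18b (0.185, 99.5 and 121 CPM), Mir19a (0.191) and Mir27a (0.220). The distance between members of the family was at least 0.917. The genes were picked for their closeness in these same 2 values, so their likeness is no result, and over 2 libraries it describes a level and little more.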

How the data were processed

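For each library the deposited file holds raw read counts of miRNA genes in 3 columns (both strands, own strand, opposite strand). Per the descriptions deposited with them, the authors made the counts on mm10 with annotation M4, from each library's own alignment. Aligner, counter and trimming: not given in the sources used here. The 4 rows that name no gene stayed out of totals and tests: unmapped reads were 27.3% and 20.0% of all reads in replicates 1 and 2, reads mapping to several places 27.0% and 28.6%, and reads on no feature 8.04% and 4.45%.

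Own-strand counts were divided by the library's own-strand total (CPM), and distances were taken on log2(CPM + 1). Identifiers were matched without version to GENCODE M21 (same assembly), where 1894 of 1973 matched. Mature sequences came from RefSeq (GRCm38.p6) and lay within 916 counted genes. Recurring sequence was searched in M21 miRNA hairpins alone, not in the genome. edgeR's quasi-likelihood test needs groups and was not used. TMM totals and the common coefficient of variation came from edgeR 4.0.16, and DESeq2 1.42.0 gave alternative size factors. Other computations used Python 3.11.15, scipy 1.17.1, pandas 2.3.3, numpy 2.4.6 and matplotlib 3.10.9. The test was checked on simulated Poisson counts with known changes. These hold counting error but no replicate error, so the check does not cover replicate error.

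The members, lists and tests were chosen with earlier results of these data known. The named genes are the 3 members, the 3 genes nearest to each in level, and genes with the same seed or within 10 kb. Mir671, up to 4 genes of each list by mean CPM, and the tissue markers Mir126a, Mir206, Mir451a and Mir122 were named as well. The low neural genes, Mir9-3, Mir135a-1, Mir7j, Mir7k and the gene pairs are outside this rule and were added after their values were seen. Alternatives were other strands, denominators, scalings and minimum counts, and each library alone. The SD is that between these 2 pools.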

Additional observations from a re-analysis of the deposited data

How the results depend on the processing

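With all reads except unmapped ones as the denominator, the levels fell to 128 CPM for Mir7-1, 81.7 for Mir7-2 and 58.0 for Mir7b, and the family share to 0.0268%, because that denominator adds reads mapping to several places as well as those outside any feature. With both strands, TMM or DESeq2 scaling the levels stayed within 1 SD of those reported. The ratios are the same with both strands by construction, since no member had opposite-strand reads. With 2 replicates each library alone always lies within 1 SD of their mean, so these values show the spread and not stability. Each library alone gave 213 to 254 CPM for Mir7-1, 132 to 167 for Mir7-2, 87.5 to 121 for Mir7b and 0.0465% to 0.0508% for the family. It gave ratios of 1.76 to 2.90 for Mir7-1 to Mir7b, 1.09 to 1.90 for Mir7-2 to Mir7b and 1.52 to 1.62 for Mir7-1 to Mir7-2. Across 5 alternatives of scaling, minimum count and strand, the log2 ratio between libraries was 0.19 to 0.25 for Mir7-1, 0.27 to 0.34 for Mir7-2 and -0.53 to -0.46 for Mir7b, with adjusted p of 0.000113 to 0.0139, 2.94e-05 to 0.00234 and 1.03e-07 to 2.60e-06 (exact binomial test), and none reached 2-fold. Over all genes, 10 were called, 2 with at least 100 reads in both libraries (269 tested) and 197 without a fold minimum, a setting added after the data were seen. No paired analysis was possible because there is a single group.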
